A study of Mus musculus with 8 samples.

Results

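The genes described here are 34 enzymes, transporters and regulators of fatty acid and triglyceride synthesis, measured by RNA sequencing in visceral white fat from around the epididymis of mice fed a high-fat diet. They were taken by exact symbol from the deposited table of 31854 rows, and all 34 had a row and passed the filter on low counts that left 15667 rows for testing. Acaca stood on 2 rows, of which the one with the higher total (19824 against 50 counts) was used. There were 4 libraries from S273A mice (replicates 2, 3, 4 and 6), which carry a knock-in allele of Pparg that replaces serine 273 of PPAR-gamma by alanine, and 4 from wild-type mice (WT, replicates 1, 2, 3 and 5). Both genotypes were on the high-fat diet. The labels used here give no strain or age and do not say whether each library is a separate animal, so the p-values below reflect variation among libraries that could be partly technical. Total counts ran from 16161127 to 18194889 in S273A and from 14880239 to 17266209 in WT.

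Fat cells make fatty acids in the cytosol from acetyl-CoA, with NADPH as the reductant, then lengthen and desaturate them and join them to glycerol-3-phosphate to store them as triglyceride. The transcription factors SREBP-1c and ChREBP, which respond to insulin and to glucose metabolites, drive most of the enzyme genes. PPAR-gamma, the receptor altered by the knock-in, acts in fat cells on genes of lipid storage, among them Pck1 and Aqp7. Its serine 273 is a phosphorylation site for Cdk5 in obese fat, and the comparison addresses whether transcripts of this pathway differ when that site is lost.

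No member was called between the genotypes. At an adjusted p under 0.05 in edgeR's quasi-likelihood test, 0 of 34 were higher and 0 lower in S273A, with 0% of all 15667 rows called. DESeq2 and limma-voom also called 0 members. At an unadjusted p under 0.05 there was 1 member in each of the 3 tools, Acacb, whose estimate was positive. In edgeR 1.46% of all rows had such a p, 0.913% with a higher and 0.549% with a lower level in S273A. In 0 of the 34 did the genotypes fail to overlap, against 1.19% of all rows, 0.657% with S273A above WT and 0.53% with S273A below it. A positive estimate was found for 21 members and a negative one for 13, against 50.7% positive over all rows. The median log2 fold change (S273A over WT) was 0.03, against 0.001 over all rows. The estimates ran from -0.20 (Dgat2) to 0.35 (Acacb), and the 95% confidence intervals of the members lay within -0.79 to 0.80. The intervals differed in width, for example -0.084 to 0.145 for Agpat3 and -0.788 to 0.626 for Thrsp. For each gene, a difference inside its own interval is not excluded. The positive count turned on single libraries: it was 7 of 34 without WT replicate 2, 33 without WT replicate 3, 32 without WT replicate 5 and 31 without S273A replicate 3.

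**Figure D1:**
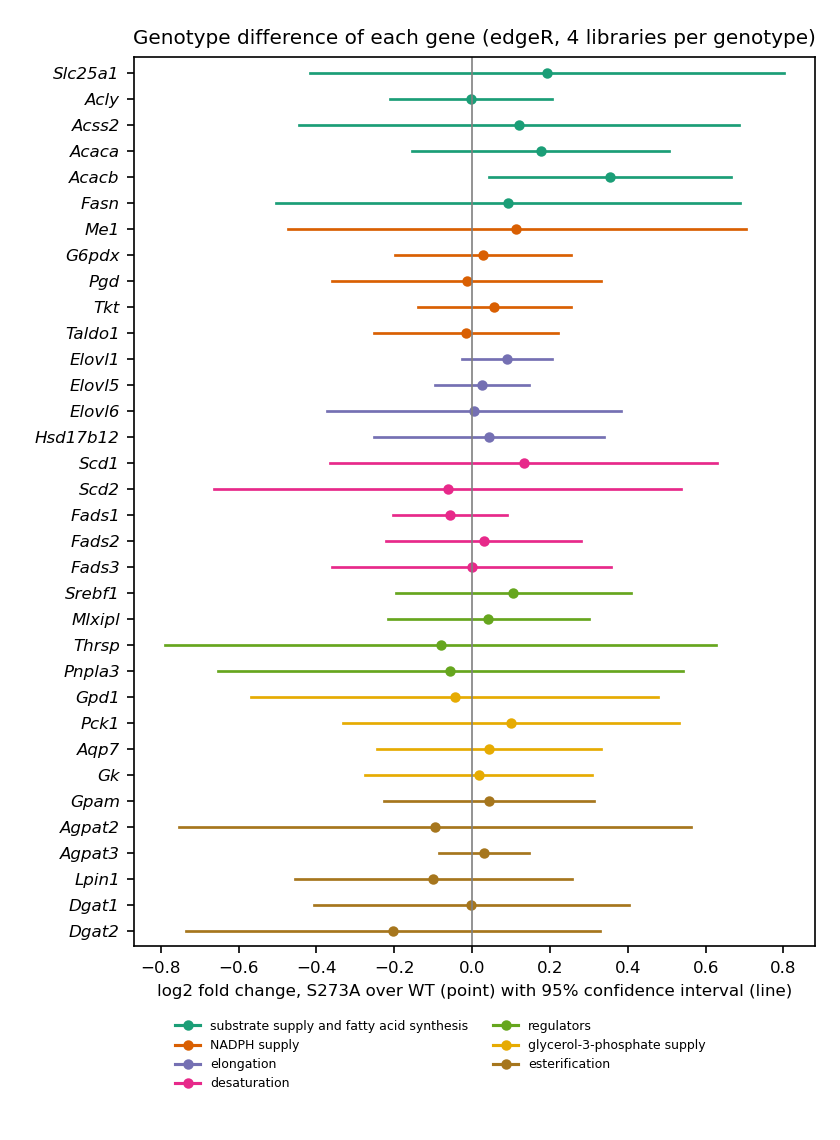
Log2 fold change of each of the 34 genes, S273A over WT (point), with its 95% confidence interval from edgeR (line), coloured by role and ordered by the steps of the pathway from top to bottom. The interval of Acacb, from 0.04 to 0.67, is the only one that leaves out 0.

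The transcripts covered a wide range of levels. Levels between genes are given per length, as TPM computed from the counts and the deposited feature lengths and averaged over all 8 libraries. The desaturase gene Scd1 stood far above the rest at 5361 TPM, ahead of Dgat2 at 1018, Fasn at 940, Gpd1 at 682 and Fads3 at 625 TPM. At the low end were Acss2 at 31.9, Gk at 20.4, Elovl6 at 19.4, Mlxipl at 17.9 and Fads2 at 12.7 TPM. The deposited length of Acss2 is 10162 bases, against 3948 bases for Fads1 at 64.1 TPM, so the place of Acss2 rests partly on that length. Scd1 and Fasn together held 60.7% of the reads of the 34 genes. The 34 genes took 2.28%, 1.4%, 1.97% and 1.65% of all counts in S273A replicates 2, 3, 4 and 6, against 1.69%, 1.31%, 2.03% and 1.89% in WT replicates 1, 2, 3 and 5. These shares overlapped, and the lowest ones were those of WT replicate 2 and of S273A replicate 3.

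The libraries within a genotype differed more than the genotypes did. The median SD of log2 CPM (counts as a rate of the TMM-scaled library size) within a genotype was 0.263 over the members, and the median absolute difference between the genotype means was 0.043. For the 9425 tested rows at least as abundant as Fads2, the least abundant member, these medians were 0.107 and 0.041. The genotype means of 32 of 34 members (94.1%) lay less than 1 such SD apart, close to the 89.7% of the comparable rows, and the exceptions were Elovl1 and Acacb. The highest library was at least 2-fold above the lowest for 11 of 34 members, against 2.89% of those 9425 rows. The 11 were Thrsp, Slc25a1, Me1, Agpat2, Acss2, Pnpla3, Fasn, Gpd1, Dgat2, Scd2 and Scd1. At the other end, Agpat3, Elovl5, Elovl1 and Fads1 ranged by 1.1, 1.14, 1.17 and 1.21-fold.

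WT replicate 2 was the lowest library for 27 of 34 members, 79.4%, where it was the lowest for 22.4% of the comparable rows. WT replicate 3 was the highest for 15 members, 44.1%, among them Fasn, Dgat2, Gpd1 and Agpat2, where it was the highest for 13.3% of the comparable rows. S273A replicate 2 was the highest for 7, namely Acaca, Scd1, Srebf1, Mlxipl, Thrsp, Pck1 and Gpam, and S273A replicate 4 for 6, namely Slc25a1, Acss2, Acacb, Me1, G6pdx and Elovl6. These shares of the members, 20.6% and 17.6%, were near the 16.4% and 13.7% of comparable rows that were highest in the same libraries. Averaged over the 34 members, the log2 deviation from a gene's mean over the 8 libraries was 0.08, -0.23, 0.18 and 0.06 in S273A replicates 2, 3, 4 and 6. In WT replicates 1, 2, 3 and 5 it was -0.06, -0.42, 0.24 and 0.16.

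**Figure D2:**
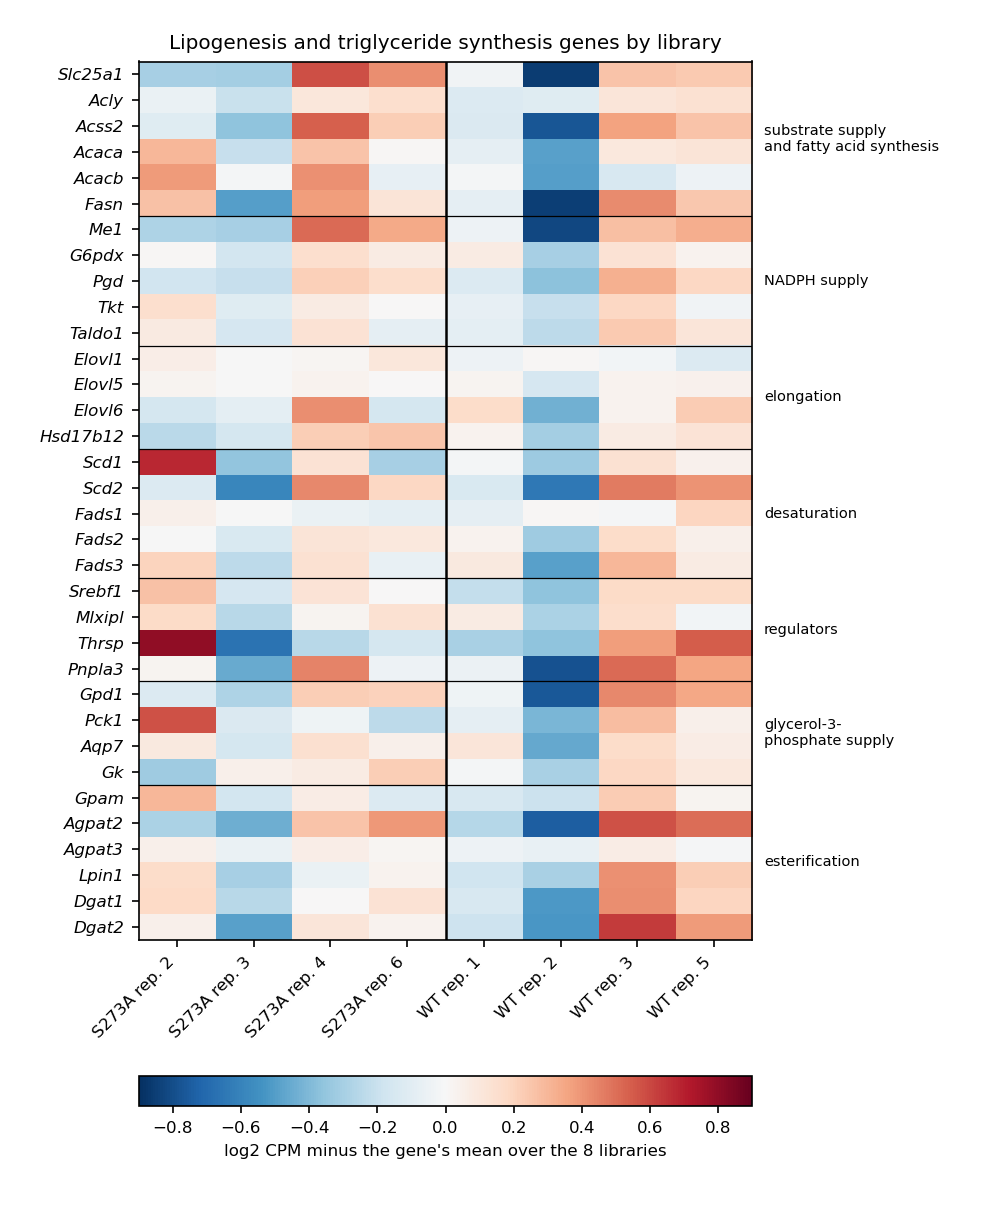
Log2 CPM of each gene minus its mean over the 8 libraries (colour, from blue below to red above), with the 4 S273A libraries left of the line and the 4 WT libraries right of it. WT replicate 2 is blue in most rows, and S273A replicate 2 is red for Scd1, Thrsp and Pck1 but blue for Slc25a1, Me1 and Agpat2.

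The markers of fat cells moved with these libraries. The summed level of 8 adipocyte markers (Adipoq, Plin1, Plin4, Cidec, Lep, Fabp4, Lipe and Cidea) was 7962, 6641, 8737 and 7451 CPM in S273A replicates 2, 3, 4 and 6. In WT replicates 1, 2, 3 and 5 it was 7967, 5634, 8992 and 8128 CPM, so that it was lowest in WT replicate 2 and highest in WT replicate 3. Of the 8 markers 7 had a positive estimate, with a median log2 fold change of 0.047, and 0 were called. The sum of 6 macrophage markers was 3343 to 3793 CPM in S273A and 3598 to 4253 CPM in WT, highest in WT replicate 2, and 1 of the 6 had a positive estimate. Endothelial markers (5 genes) summed to 684, 578, 626 and 760 CPM in S273A and to 684, 498, 709 and 576 CPM in WT, in the same order. Like the adipocyte sum, this sum was lowest in WT replicate 2 and, within S273A, in replicate 3, but it was highest in S273A replicate 6. Of the endothelial markers, 5 of 5 had a positive estimate. Progenitor and fibroblast markers (6 genes) summed to 2494, 2322, 2690 and 2790 CPM in S273A and to 2394, 2639, 2759 and 2843 CPM in WT. Of these, 2 of 6 had a positive estimate. Mesothelial markers (6 genes) summed to 154 to 211 CPM in S273A and 106 to 171 CPM in WT. Here 6 of 6 had a positive estimate, with a median log2 fold change of 0.304. T and B cell markers (7 genes) summed to 77.4, 160, 70.8 and 99.9 CPM in S273A replicates 2, 3, 4 and 6, against 108, 139, 93.3 and 64.1 CPM in WT replicates 1, 2, 3 and 5. This sum was highest in S273A replicate 3 and WT replicate 2, the libraries of each genotype in which the average over the 34 members was lowest. A positive estimate was found for 3 of the 7 T and B cell markers. Red blood cell markers (3 measured genes) summed to 57.6, 61.7, 108 and 124 CPM in S273A and to 77.8, 79.5, 62.2 and 51.4 CPM in WT, highest in S273A replicates 6 and 4. Of these, 3 of 3 had a positive estimate. The 6 measured epididymis and testis markers summed to at most 1.34 CPM in S273A (replicate 2) and 0.356 CPM in WT (replicate 1), with Lcn8 at 0 in all libraries. Adam7 made up 1.11 CPM of the sum in S273A replicate 2 and was at 0 in every other library. In whole-tissue RNA, fewer fat cells and less of a transcript per fat cell cannot be told apart, and the part of tissue makeup in the values below was not tested.

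**Figure D3:**
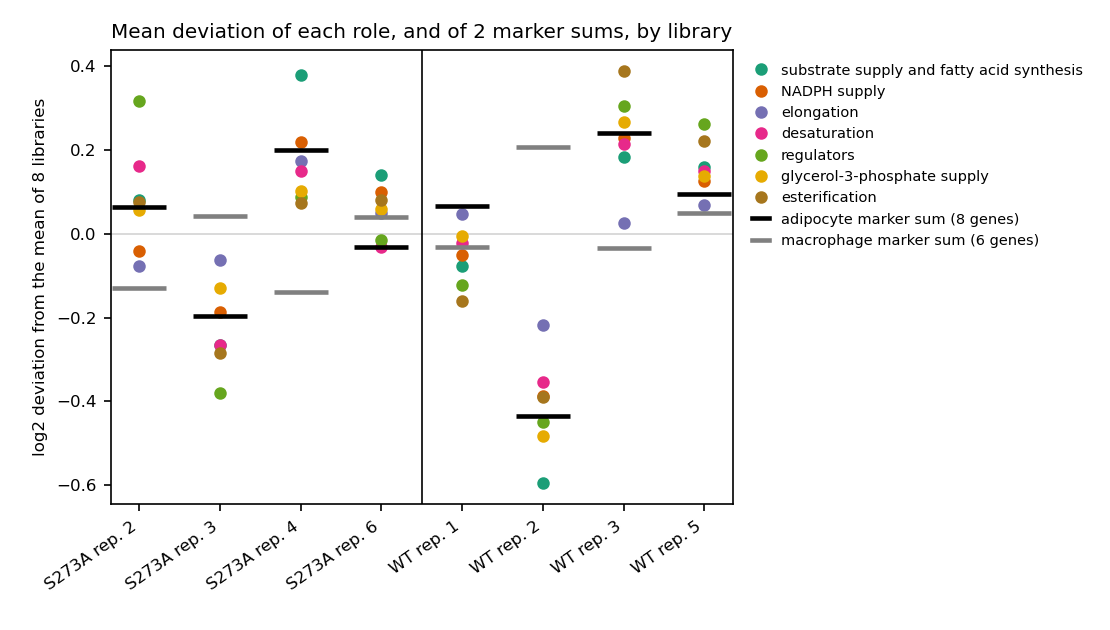
Mean log2 deviation of the genes of each role from their means over the 8 libraries (dots), and the same for the summed level of the adipocyte and macrophage markers (black and grey bars). In WT replicate 2 the roles lie between -0.60 and -0.22 and the adipocyte marker sum at -0.43, while the macrophage marker sum is at 0.21.

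Divided by the adipocyte marker sum, a scaling chosen after seeing the data, the range over the 8 libraries became smaller for 27 of 34 members. The median ratio of highest to lowest library was 1.48 after this scaling and 1.69 before it, and 1 member, Thrsp, still ranged at least 2-fold (2.3). WT replicate 2 was then the lowest library for 6 members and the highest for 9. Aqp7 ranged by only 1.11-fold on this scale and Fads3 by 1.15-fold, against 1.54 and 1.73-fold in CPM. Agpat3, Elovl5, Elovl1, Fads1 and Acly, which vary little in CPM, ranged more widely after it, by 1.41 to 1.64-fold. The ranges after scaling were not computed for all rows, so whether the smaller range is particular to the members was not tested.

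**Figure D4:**
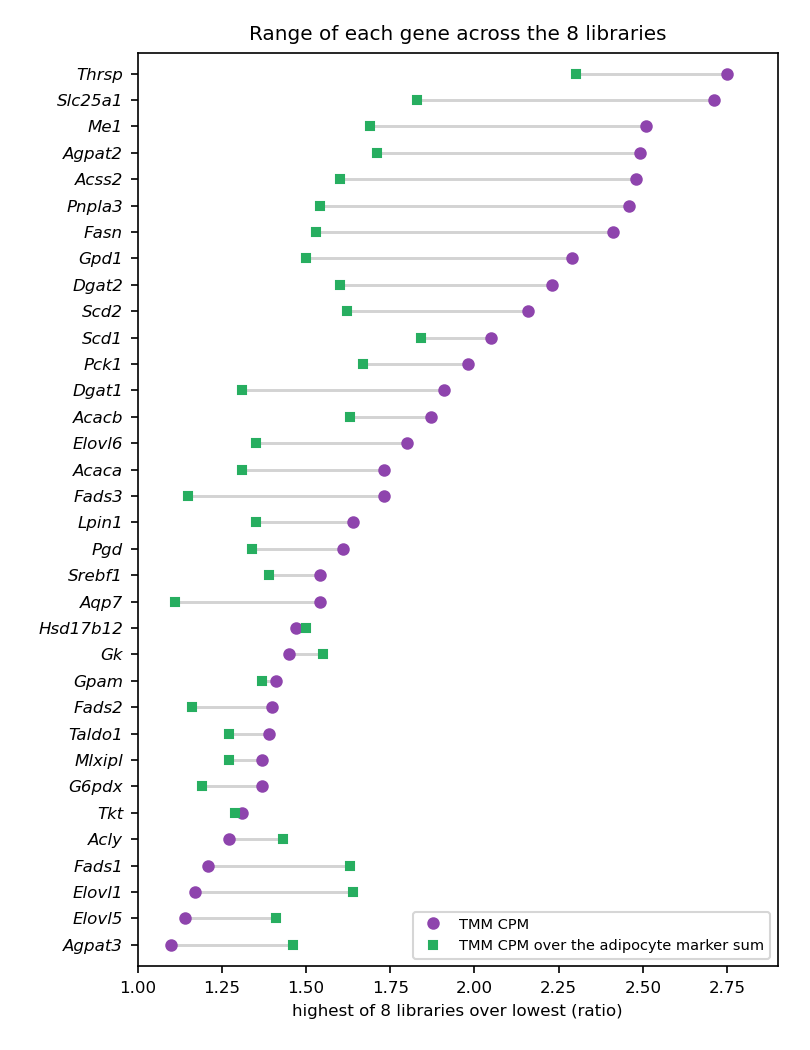
Ratio of the highest to the lowest of the 8 libraries for each gene, in CPM (circles) and in CPM divided by the adipocyte marker sum (squares). Most squares lie left of their circles, and Thrsp keeps the widest range on both scales, 2.75 and 2.3.

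For the steps that supply acetyl-CoA and build palmitate, 5 of 6 estimates were positive and the median log2 fold change was 0.15. Acacb, the acetyl-CoA carboxylase at the mitochondrial surface whose malonyl-CoA restrains fatty acid oxidation, had the smallest p of the 34. It was at 247, 187, 252 and 180 CPM in S273A replicates 2, 3, 4 and 6, against 188, 135, 172 and 184 CPM in WT replicates 1, 2, 3 and 5. Replicates 2 and 4 of S273A lay above all WT libraries, and the other S273A libraries lay among the WT values. It averaged 217 ± 38.2 CPM in S273A and 170 ± 24.3 CPM in WT (SD, n = 4 each). The log2 fold change was 0.35 (SE 0.14), with an edgeR unadjusted p of 0.0296 and an adjusted p of 1. Over the alternatives the adjusted p stayed between 0.999 and 1 and the unadjusted p ran from 0.013 to 0.088. The log2 fold change ran from 0.26 to 0.50, with the upper end from the fit with a replicate term. That estimate rests on replicates 2 and 3 of each genotype, the only numbers found in both. The edgeR unadjusted p was 0.0812 without S273A replicate 2, 0.088 without S273A replicate 4, 0.0709 without WT replicate 2 and 0.0523 without WT replicate 3. As a percentage of the adipocyte marker sum, Acacb was at 3.11, 2.82, 2.89 and 2.42 in S273A replicates 2, 3, 4 and 6 and at 2.36, 2.39, 1.91 and 2.27 in WT replicates 1, 2, 3 and 5. On that scale the lowest S273A library lay just above the highest WT library. This was so for 1 of 34 members and 0.185% of all 15667 rows (0.313% with either genotype above), and the edgeR unadjusted p of Acacb with this scaling was 0.0643, where 0.287% of rows had one under 0.05. Acacb (row uc008yzi.2) spans 114146535 to 114250761 on the plus strand of chromosome 5 (GRCm38) and shares no exon bases with another annotated gene.

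Acaca, the cytosolic acetyl-CoA carboxylase that feeds fatty acid synthesis, averaged 155 ± 24.8 CPM in S273A and 138 ± 24.6 CPM in WT (log2 fold change 0.18, SE 0.15). Per length, Acacb exceeded Acaca by 1.87, 2.02, 1.96 and 1.67-fold in the S273A libraries, in the order above, and by 1.85, 1.76, 1.5 and 1.58-fold in the WT libraries. The ratio was thus over 1 in each of the 8 libraries and overlapped between the genotypes.

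Fasn, the fatty acid synthase, was at 3032, 1793, 3268 and 2741 CPM in S273A replicates 2, 3, 4 and 6, against 2383, 1402, 3383 and 2992 CPM in WT replicates 1, 2, 3 and 5. S273A replicate 3 and WT replicate 2 were the lowest libraries of their genotypes, and the log2 fold change of 0.09 (SE 0.27) was within that spread; it was -0.11 without WT replicate 2. Fasn lies on chromosome 11, from 120805846 to 120824547 on the minus strand. Slc25a1, the carrier that exports citrate from mitochondria, was at 114, 113, 209 and 187 CPM in S273A and at 137, 77.2, 167 and 165 CPM in WT, in the same order. It lies on chromosome 16, from 17925223 to 17928219 on the minus strand. In contrast to Fasn, it was low in both S273A replicates 2 and 3, and its log2 fold change was 0.19 (SE 0.27), with -0.003 without WT replicate 2.

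Acss2, which makes acetyl-CoA from acetate, was at 81.4, 68.4, 128 and 102 CPM in S273A and at 80.2, 51.5, 113 and 105 CPM in WT (log2 fold change 0.12, SE 0.25; -0.06 without S273A replicate 4 and -0.07 without WT replicate 2). Its pattern over the libraries was close to that of Slc25a1, with the highest value in S273A replicate 4 and the lowest in WT replicate 2. Of its annotated exon bases 9.12% overlap genes on the opposite strand (Ggt7, Gss and Acss2os), which these libraries, made without strand information, cannot separate. Acly, which splits exported citrate into acetyl-CoA, kept a narrow range, at 234 to 299 CPM in S273A and 247 to 296 CPM in WT, with a log2 fold change of -0.002 (SE 0.09).

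Among the genes that supply NADPH, 3 of 5 estimates were positive, with a median of 0.03. Me1, the cytosolic malic enzyme, was at 270, 266, 467 and 416 CPM in S273A replicates 2, 3, 4 and 6, against 318, 186, 395 and 413 CPM in WT replicates 1, 2, 3 and 5. It followed Slc25a1 in being low in S273A replicates 2 and 3, and its log2 fold change was 0.11 (SE 0.26), with -0.08 without WT replicate 2. Taldo1, transaldolase of the pentose phosphate pathway and the highest of this group per length (447 TPM), was at 168, 143, 174 and 151 CPM in S273A and at 150, 135, 187 and 171 CPM in WT (log2 fold change -0.02, SE 0.11). The oxidative enzymes of that pathway, G6pdx and Pgd, averaged 325 ± 29.7 and 246 ± 37.1 CPM in S273A, against 318 ± 39.8 and 249 ± 51.9 CPM in WT. Transketolase, Tkt, averaged 248 ± 18.9 CPM in S273A and 239 ± 27.6 CPM in WT. These pentose phosphate genes ranged by 1.31 to 1.61-fold over the 8 libraries, less than the 2.51-fold of Me1. Of the exon bases of G6pdx 13.6% overlap Ikbkg on the opposite strand.

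All 4 elongation genes had positive estimates of at most 0.09, and none ranged 2-fold over the libraries. Hsd17b12, the ketoacyl-CoA reductase of the elongation cycle, was at 149, 158, 206 and 210 CPM in S273A replicates 2, 3, 4 and 6, against 181, 143, 186 and 192 CPM in WT replicates 1, 2, 3 and 5, so the genotypes overlapped (log2 fold change 0.04, SE 0.13). Elovl5, which lengthens polyunsaturated fatty acids, averaged 111 ± 1.39 CPM in S273A and 109 ± 6.75 CPM in WT, with an interval of -0.10 to 0.15 on the log2 scale. Elovl1, which makes saturated very long chains, averaged 48.6 ± 1.57 CPM in S273A and 45.7 ± 1.76 CPM in WT (log2 fold change 0.09, SE 0.05, edgeR unadjusted p 0.115, adjusted p 1). Its libraries overlapped, since WT replicate 2 at 47.5 CPM lay above S273A replicate 3 at 47.0 CPM. Elovl6, which lengthens palmitate, averaged 33.1 ± 6.93 CPM in S273A and 33.0 ± 6.30 CPM in WT, with its highest value, 43.5 CPM, in S273A replicate 4.

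Of the desaturases, Scd1 puts the double bond into stearate and palmitate to give the monounsaturated acids of stored fat. It was at 12779, 6222, 8736 and 6492 CPM in S273A replicates 2, 3, 4 and 6, against 7885, 6364, 8781 and 8189 CPM in WT replicates 1, 2, 3 and 5. The spread was wider in S273A (8557 ± 3032 CPM) than in WT (7805 ± 1030 CPM; SD, n = 4 each), with S273A replicate 2 above all the others. The log2 fold change was 0.13 (SE 0.22), and -0.13 without S273A replicate 2. Scd1 spans 44394455 to 44407879 on the minus strand of chromosome 19. Its neighbour Scd2, a desaturase better known from brain and early skin, was at 386, 279, 566 and 478 CPM in S273A and at 381, 269, 581 and 554 CPM in WT, so that S273A replicate 2 was not its highest library. Per length, Scd1 exceeded Scd2 by 33.2, 22.3, 15.5 and 13.6-fold in the S273A libraries and by 20.7, 23.7, 15.1 and 14.8-fold in the WT libraries. The Scd genes are similar in sequence, so short reads may have been split between them. Fads1 and Fads2, which desaturate polyunsaturated acids, averaged 69.5 ± 2.95 and 13.3 ± 1.04 CPM in S273A, against 72.2 ± 5.96 and 13.1 ± 1.78 CPM in WT. Fads3, of the same family, averaged 573 ± 77.8 CPM in S273A and 573 ± 124 CPM in WT.

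The regulators gave 2 positive and 2 negative estimates. Thrsp, the nuclear lipogenic protein Spot14, had the widest range of the 34, 2.75-fold. It was at 130, 47.3, 63.1 and 67.1 CPM in S273A replicates 2, 3, 4 and 6, against 61.1, 58.2, 97.2 and 110 CPM in WT replicates 1, 2, 3 and 5. Both the highest and the lowest library were S273A, and the log2 fold change of -0.08 (SE 0.31) ran from -0.46 to 0.10 when single libraries were left out. Thrsp spans 97412938 to 97417730 on the minus strand of chromosome 7. Srebf1, which encodes SREBP-1, averaged 280 ± 34.1 CPM in S273A and 260 ± 48.1 CPM in WT (log2 fold change 0.11, SE 0.14). Mlxipl, which encodes ChREBP, averaged 25.8 ± 3.25 CPM in S273A and 25.1 ± 3.22 CPM in WT. Pnpla3, a lipid droplet acylhydrolase induced with lipogenesis, averaged 149 ± 38.0 CPM in S273A and 155 ± 54.8 CPM in WT. Both transcription factor genes thus ranged less over the libraries (1.54 and 1.37-fold) than Thrsp and Pnpla3 (2.46-fold).

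The genes that supply glycerol-3-phosphate had a median log2 fold change of 0.03. Gpd1, which makes it from the glycolytic intermediate dihydroxyacetone phosphate, was at 474, 426, 602 and 595 CPM in S273A replicates 2, 3, 4 and 6, against 504, 304, 698 and 657 CPM in WT replicates 1, 2, 3 and 5. The S273A values lay inside the WT range, and the log2 fold change was -0.04 (SE 0.23); 13% of its exon bases overlap an antisense gene. Pck1, which makes it by glyceroneogenesis and is a PPAR-gamma target, was at 824 CPM in S273A replicate 2 and at 469 to 540 CPM in the other S273A libraries, against 417 to 670 CPM in WT. Aqp7, the glycerol channel of fat cells, averaged 197 ± 17.2 CPM in S273A and 191 ± 34.6 CPM in WT. Glycerol kinase, Gk, was low, at 26 ± 3.92 CPM in S273A and 25.7 ± 3.57 CPM in WT.

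In the esterification group 2 of 6 estimates were positive, and the median was -0.05. Dgat2, which adds the last acyl chain to newly made diacylglycerol, was at 642, 444, 671 and 636 CPM in S273A replicates 2, 3, 4 and 6, against 547, 432, 963 and 811 CPM in WT replicates 1, 2, 3 and 5. Replicates 3 and 5 of WT lay above all S273A libraries, and WT replicate 2 lay below them. It averaged 598 ± 104 CPM in S273A and 689 ± 242 CPM in WT (SD, n = 4 each). The log2 fold change was -0.20 (SE 0.24), and 0.007 without WT replicate 3. Dgat2 spans 99153658 to 99182719 on the minus strand of chromosome 7. Agpat2, the acyltransferase of phosphatidic acid synthesis whose loss causes lipodystrophy, was at 125, 112, 182 and 200 CPM in S273A and at 127, 91.1, 226 and 216 CPM in WT. Both genotypes split into a lower and a higher pair of libraries, and the log2 fold change was -0.10 (SE 0.29), with 0.10 without WT replicate 3. Gpam, the mitochondrial acyltransferase of the first step, averaged 136 ± 20.6 CPM in S273A and 132 ± 17.8 CPM in WT. Lpin1, the phosphatidate phosphatase, averaged 326 ± 43.4 CPM in S273A and 349 ± 80.4 CPM in WT. Dgat1, the other diacylglycerol acyltransferase, averaged 105 ± 13.5 CPM in S273A and 106 ± 28.8 CPM in WT. Agpat3, an acyltransferase that also acts in phospholipid remodelling, kept within 167 to 181 CPM in S273A and 166 to 182 CPM in WT, the narrowest range of the 34.

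**Figure D5:**
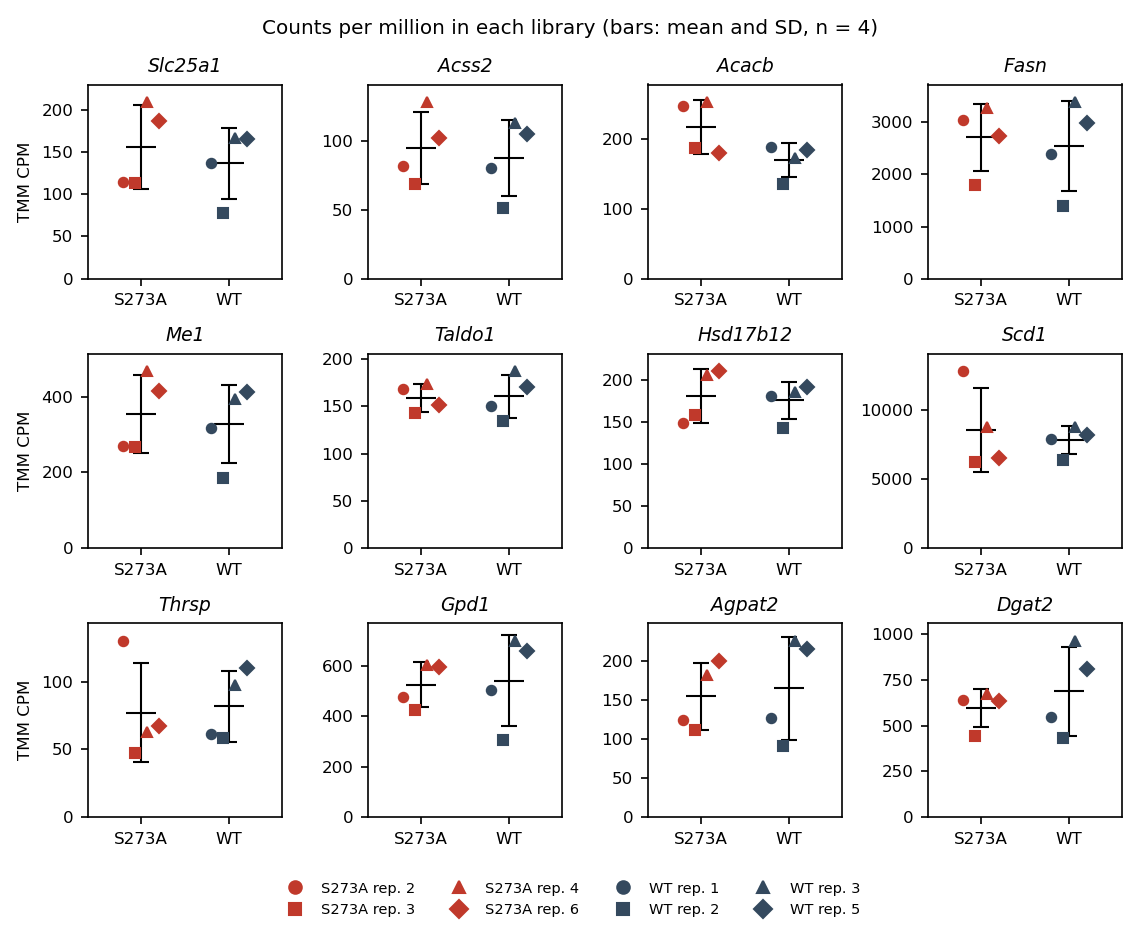
CPM of 12 genes in each library, S273A left and WT right in every panel, with the mean and SD of 4 libraries as bars and a symbol for each library. The genotypes overlap in every panel, with S273A replicate 2 on top for Scd1 and Thrsp and WT replicate 2 lowest in every panel but those of Scd1 and Thrsp.

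Promoter sequences were available for 28 of the 34 genes, as 36 windows of 300 bases (250 before and 50 after a transcript start) from RefSeq on GRCm38.p6; Scd1, Scd2, Fads1, Gpd1, Dgat1 and Dgat2 were not matched. Those of Acacb, with the smallest p, and of Fasn, Slc25a1, Thrsp and Agpat2, which ranged more than 2-fold between libraries in differing ways, are given below, 5′ to 3′ on the gene's strand. Capitals mark a match on either strand to CACGTG (an E-box, bound by USF and ChREBP complexes), TCACNCCAC (a sterol response element, bound by SREBP), CCAAT (bound by NF-Y), GGGCGG (a GC box, bound by Sp1) or the DR1 (AGGTCA repeated directly with 1 base between, bound by PPAR-gamma with RXR). The windows are chr5:114165268-114165567 (plus strand) for Acacb, chr11:120824498-120824797 (minus) for Fasn, chr16:17928170-17928469 (minus) for Slc25a1, chr7:97417501-97417800 (minus) for Thrsp and chr2:26604368-26604667 (minus) for Agpat2. The starts used for Acacb and Thrsp lie inside the annotated gene spans given above.
Acacb: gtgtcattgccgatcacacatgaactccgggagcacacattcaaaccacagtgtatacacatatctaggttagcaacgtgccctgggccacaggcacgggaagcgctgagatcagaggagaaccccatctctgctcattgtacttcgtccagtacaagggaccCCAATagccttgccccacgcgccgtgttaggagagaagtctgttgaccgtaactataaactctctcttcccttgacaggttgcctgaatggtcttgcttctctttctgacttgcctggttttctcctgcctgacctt
Fasn: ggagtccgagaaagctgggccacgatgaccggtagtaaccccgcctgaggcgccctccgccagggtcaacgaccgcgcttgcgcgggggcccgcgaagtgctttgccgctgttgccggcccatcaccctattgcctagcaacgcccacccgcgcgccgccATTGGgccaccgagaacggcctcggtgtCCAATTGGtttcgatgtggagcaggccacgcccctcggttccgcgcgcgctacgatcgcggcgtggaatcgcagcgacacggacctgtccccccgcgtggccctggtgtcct
Slc25a1: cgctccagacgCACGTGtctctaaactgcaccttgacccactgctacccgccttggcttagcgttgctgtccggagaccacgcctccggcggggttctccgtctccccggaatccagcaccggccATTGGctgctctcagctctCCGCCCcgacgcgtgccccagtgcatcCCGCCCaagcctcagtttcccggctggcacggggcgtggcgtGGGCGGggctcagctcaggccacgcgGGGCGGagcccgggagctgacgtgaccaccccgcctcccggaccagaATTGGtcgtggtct
Thrsp: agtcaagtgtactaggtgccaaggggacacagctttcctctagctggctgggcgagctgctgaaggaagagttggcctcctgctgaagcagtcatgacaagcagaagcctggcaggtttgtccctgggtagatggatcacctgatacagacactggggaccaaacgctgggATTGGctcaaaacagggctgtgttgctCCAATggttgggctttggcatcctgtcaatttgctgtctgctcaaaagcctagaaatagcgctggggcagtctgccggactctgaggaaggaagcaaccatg
Agpat2: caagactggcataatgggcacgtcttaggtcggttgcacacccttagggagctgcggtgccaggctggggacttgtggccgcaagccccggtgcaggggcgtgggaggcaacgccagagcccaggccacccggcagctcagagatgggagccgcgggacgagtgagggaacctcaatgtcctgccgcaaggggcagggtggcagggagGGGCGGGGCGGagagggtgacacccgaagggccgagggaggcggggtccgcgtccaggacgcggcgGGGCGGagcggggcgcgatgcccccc
The Fasn window held 3 CCAAT matches, of which the forward one and a reverse one share bases, and Thrsp held 2. Slc25a1 held 1 E-box, 2 CCAAT and 4 GC box matches. Agpat2 held 3 GC boxes, 2 of them overlapping by 1 base, and Acacb a single CCAAT.

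Over the windows of the pathway genes, CCAAT was found in 18 of 36 (50%), against 37.4% of all 32851 promoter windows of the same length. The GC box was in 21 of 36 (58.3%), against 35.7% of all windows. The E-box was in 4 of 36 (Slc25a1, Elovl5, Mlxipl and Gk), against 7.15%. The sterol response element was in 1 of 36, a window of Mlxipl, against 1.24%, and the DR1 in 0 of 36, against 0.0396%. These are descriptions of letters in short windows and say nothing of binding, and windows of 1 gene can overlap.

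Other genes of the same pathways were listed by function, 82 symbols including older synonyms, of which 75 had a row and 70 were tested. At an adjusted p under 0.05, 0 of the 70 were higher and 0 lower in S273A in edgeR, and 0 were called by DESeq2 or limma-voom. At an unadjusted p under 0.05 there were 0 of 70 in edgeR, against 1.46% of all rows, and in 0 of 70 were the genotypes apart, against 1.19%. A positive estimate was found for 44 and a negative one for 26, and their median log2 fold change was 0.03. The smallest unadjusted p was that of Hacd3 (0.0814, edgeR adjusted p 1), a dehydratase of the elongation cycle, at 56.7 ± 2.12 CPM in S273A and 61.2 ± 3.46 CPM in WT (SD, n = 4 each).

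Some of these genes, named after their values were seen, shared the range between libraries, but most did not. The highest library was at least 2-fold above the lowest for 9 of the 70 (12.9%), against 16.2% of all 15667 rows. Both shares include rows less abundant than Fads2, unlike the 2.89% of 9425 rows set beside the members. Of the 9, Elovl3, Scd3, Scd4, Aqp9, Awat1 and Awat2 were less abundant than Fads2, and Insig1, Acsl1 and Pcx were more abundant. A share for the more abundant pathway genes alone was not computed. The median range of the 70 was 1.27-fold, against 1.36-fold over all rows and 1.24-fold over those 9425 rows. Insig1, the sterol-regulated anchor of SREBP, was at 175, 202, 311 and 283 CPM in S273A replicates 2, 3, 4 and 6, against 198, 124, 305 and 336 CPM in WT replicates 1, 2, 3 and 5. As with Slc25a1, Me1 and Agpat2, S273A replicates 2 and 3 were lower than S273A replicates 4 and 6, and WT replicate 2 was the lowest of all. The acyl-CoA synthetase gene Acsl1 averaged 788 ± 91.2 CPM in S273A and 809 ± 245 CPM in WT, and pyruvate carboxylase, Pcx, 718 ± 124 CPM in S273A and 662 ± 173 CPM in WT. Against this, Srebf2, which encodes the SREBP of cholesterol synthesis, averaged 146 ± 11.3 CPM in S273A and 145 ± 4.08 CPM in WT, and Nr1h3, which encodes LXR-alpha, 108 ± 8.65 CPM in S273A and 109 ± 1.27 CPM in WT. Both ranged by only 1.19-fold over the 8 libraries.

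For context, Pparg itself averaged 140 ± 18.1 CPM in S273A and 129 ± 15 CPM in WT (log2 fold change 0.12, SE 0.11). Gdf3, a secreted factor of the TGF-beta family, was at 3.96 ± 2.35 CPM in S273A and 17.4 ± 1.12 CPM in WT (log2 fold change -2.14, edgeR adjusted p 0.646), and DESeq2 called it as the only gene. The knock-in changes a codon, so neither level checks the genotype labels.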

How the data were processed

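The 8 libraries were made from rRNA-depleted RNA with a tagmentation kit that keeps no strand information, per the labels' protocols. One deposited table gives raw counts for each row and library beside a feature length in bases, per the file headers. The submitters' processing notes name HISAT2 2.0.5, featureCounts 1.5.2, Picard 2.9.2, bcl2fastq 2.20.0, edgeR 3.3.0 and build mm10, without their roles, and the annotation is not given in the sources used here. TPM were computed here from these counts and lengths.

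Counts were tested with edgeR 4.0.16 in R 4.3.3: filterByExpr defaults (a count of about 10 in 4 libraries, a total of 15), TMM scaling, estimateDisp, glmQLFit with the robust option, glmQLFTest and Benjamini-Hochberg adjustment over 15667 rows. The test was checked on simulated counts, and the check was required to find only changes far larger than the estimates of the members. DESeq2 1.42.0, limma-voom (limma 3.58.1), other scalings, no filter, a replicate term and leaving out each library were alternatives. No 2 libraries were duplicates, since chi-square per degree of freedom was at least 5.78 for each pair, and their log2 CPM correlated at 0.985 to 0.993. Standard errors come from the F statistic. Gene positions are from GENCODE M21 on GRCm38, the assembly mm10 names.

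The members, gene lists and marker lists were chosen with earlier results of these data known. Values in every library are given for members with an unadjusted p under 0.05 or no overlap, for the highest member per length of each of the 7 roles, and for the 5 members with the widest range; of other pathway genes, those under that p or without overlap were to be named, and there were none.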

Additional observations from a re-analysis of the deposited data

Results flagged for a closer look

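In 3 of the 68 groups of 4 libraries (34 genes in each genotype), 1 library stood apart from the other 3 by Dixon's criterion, where chance flags about 1 group in 20. Elovl6 was at 43.5 CPM in S273A replicate 4, against 29.2 to 30.6 CPM in the other S273A libraries. Dgat2 was at 444 CPM in S273A replicate 3, against 636 to 671 CPM in the other S273A libraries. Elovl5 was at 98.7 CPM in WT replicate 2, against 112 to 113 CPM in the other WT libraries.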

How the results depend on the processing

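No member was called under any of the alternatives run, and 0 of the 70 other pathway genes were. Acacb kept a positive estimate in every alternative, but the count of members under an unadjusted p of 0.05, 1 with all libraries, was 0 to 1 with 1 library left out (0 without S273A replicate 2 or 4, or WT replicate 2 or 3) and 0 with the adipocyte scaling. Over all rows, 0 genes were called by edgeR and limma-voom, 1 (Gdf3) by DESeq2, 1 with the adipocyte scaling and 0 to 1 without 1 library (Gdf3, without S273A replicate 4). At an unadjusted p under 0.05, 229 rows passed in edgeR, 166 in DESeq2, 223 in limma-voom, 374 without the filter, 45 with the adipocyte scaling and 209 to 356 without 1 library. Members with a positive estimate numbered 7 to 33 and their median log2 fold change ran from -0.06 to 0.10 without 1 library.

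The replicate numbers 2 and 3 occur in both genotypes, but same-numbered libraries did not deviate together (correlations -0.08 and -0.22), so they were not treated as pairs. With a term for the replicate number (a replicate block), the genotype estimate rests only on replicates 2 and 3 of each genotype. The other numbers occur in 1 genotype each. With this block, 94 rows and 0 members had an unadjusted p under 0.05 in edgeR. Among the 12 members described in every library, the estimates that changed sign with it were those of Slc25a1 (-0.004), Acss2 (-0.033), Me1 (-0.014), Hsd17b12 (-0.085) and Thrsp (0.069). Over all 34 members, 19 estimates were positive with it. Limma-voom gave 0.007 for Gpd1. Leaving out 1 library gave ranges of -0.003 to 0.33 for Slc25a1, -0.065 to 0.27 for Acss2, -0.11 to 0.27 for Fasn, -0.081 to 0.24 for Me1, -0.043 to 0.13 for Hsd17b12 and -0.13 to 0.27 for Scd1. For Taldo1 it was -0.092 to 0.069, for Thrsp -0.46 to 0.10, for Gpd1 -0.24 to 0.11, for Agpat2 -0.30 to 0.10 and for Dgat2 -0.37 to 0.007. The cause was not tested beyond the fewer libraries fitted. With 4 libraries per genotype, the distance from an estimate to either end of the 95% interval had a median of 0.237 on the log2 scale over all rows. The members were typically less precise, with a median SE of 0.151, against 0.106 over all rows and 0.076 over the 9425 rows at least as abundant as Fads2.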

Other observations

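Awat1, an acyltransferase of wax ester synthesis best known from skin glands, ranged 27-fold over the libraries. It was at 10.9, 1.86, 0.402 and 0.615 CPM in S273A replicates 2, 3, 4 and 6, against 2.02, 3.53, 1.3 and 2.11 CPM in WT replicates 1, 2, 3 and 5, with a log2 fold change of 0.62 (SE 0.86, edgeR adjusted p 1). The high value was in S273A replicate 2 alone, and the gene was named after its values were seen.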
